A study of Mus musculus with 42 samples.

Results

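Transcripts of the machinery that moves proteins and RNA through the nuclear envelope were followed in livers of mice fed rapamycin (Rapa). The members were all probes whose gene symbol starts with Kpna, Kpnb, Ipo, Xpo, Tnpo or Ranbp or with Nup and a number, together with Ran, Rangap1, Rcc1 and Cse1l. These were 51 probes of 39 genes among the 17082 probes for which normalized values were deposited. They were measured in C57BL6/N mice aged 25 months that ate 14 ppm of Rapa for 6 months from the age of 19 months, or a control diet with the empty Eudragit capsule material. The groups were 11 Rapa females, 9 control females, 12 Rapa males and 10 control males, with 1 Illumina Mouse Ref8 array of whole liver RNA per mouse and no genetic change in the labels. All groups received their diet late in life, and whole liver mixes hepatocytes with other cells, so that fewer cells of a type and less RNA per cell cannot be told apart.

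Cargo proteins with a nuclear localization signal are bound by an importin alpha adaptor (the Kpna genes), which is carried through the pore by importin beta (Kpnb1). Other importins and transportins bind cargo directly, and exportins carry cargo out together with the small GTPase Ran. Rcc1 loads Ran with GTP in the nucleus and Rangap1 triggers GTP hydrolysis in the cytoplasm, and Cse1l returns importin alpha to the cytoplasm. The pore itself is built from nucleoporins, which form the Y complex and the inner ring of the scaffold, the central channel, the filaments on the cytoplasmic side, the nuclear basket and a membrane anchor. In liver the machinery serves, among others, the nuclear receptors and transcription factors that respond to feeding and hormones.

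A probe was tested if its detection p was under 0.05 on at least 9 arrays, which held for 12719 probes, including 45 of the 51 member probes and 36 of the 39 genes. The probes of Kpna7, Xpo1 and Xpo4 and 1 probe each of Nup133, Nup155 and Ranbp3l were not tested. Xpo1, the main exportin for proteins with a nuclear export signal, was detected in 0 of 11 Rapa females, 1 of 9 control females, 0 of 12 Rapa males and 0 of 10 control males, so its level was not measurable with this probe. Of the 51 probes, 23 were detected on all 42 arrays and 0 on none. The number of member probes detected on an array was 29 to 37 in Rapa females (median 34), 29 to 40 in control females (median 34), 37 to 46 in Rapa males (median 41.5) and 42 to 46 in control males (median 43.5). Females thus had fewer member probes above background in either diet, which was not particular to the members. Over all probes, Rapa females detected 10368 to 11581 and control females 9519 to 11043. Rapa males detected 11254 to 12544 and control males 11524 to 12585. The background of the female arrays (5th percentile of the signal) was also lower, at 78.4 to 107.7 in Rapa females and 76.5 to 89.7 in control females against 115.8 to 141 in Rapa males and 107.68 to 128.9 in control males. Levels are given as log2 signals after quantile normalization, they compare mice for 1 probe and not probes with each other, and where a gene had several probes they are numbered from the brightest.

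**Figure D1:**
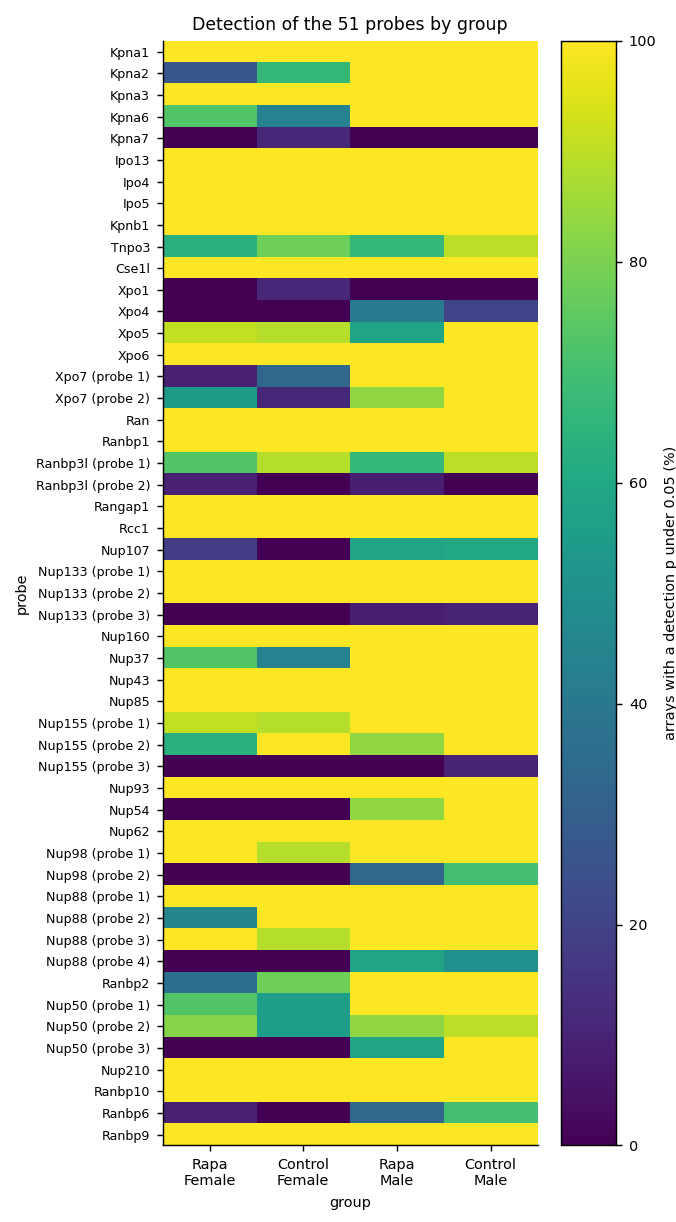
Share of arrays on which each of the 51 probes (rows, grouped by class) had a detection p under 0.05, in percent, for Rapa Female, Control Female, Rapa Male and Control Male (columns). Kpnb1, Kpna3 and Rangap1 were detected on every array, while Nup54 was detected in 0 of 11 Rapa females and 0 of 9 control females.

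Among the arrays, those of control females 6 to 9 formed a set of their own. Over the 9720 probes detected on no array, their arrays correlated with one another at an r of at least 0.373, and the other pairs among 861 reached 0.294 at most. Rapa females 1 to 4 had a background of 78.4 to 80.3, and Rapa females 5 to 11 one of 102.4 to 107.7. No 2 arrays held the same signals. Results on the females are therefore given with and without control females 6 to 9. The labels give neither slides nor cages, so the spread behind the p-values may hold slide and cage differences besides those between these mice.

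In the livers of Rapa females, Kpnb1 (importin beta) and Kpna3 (an importin alpha) fell, while in Rapa males Kpnb1 rose by a call close to the threshold. Compared with control females, 12 of the 45 tested member probes were higher in Rapa females (26.7% of them, against 12.2% of all tested probes) and 6 were lower (13.3%, against 9.37%), where a probe passed if limma gave an adjusted p under 0.05 together with a log2 ratio beyond 0.15 on either side. The lower probes were those of Kpna3, Kpnb1, Ranbp2 and Kpna2, and 1 probe each of Nup88 and Xpo7. The higher probes were those of Ranbp10, Ranbp9, Cse1l, Ipo4, Ipo5, Kpna1, Nup160, Nup85 and 1 probe each of Nup133, Nup98, Nup88 and Xpo7. In Rapa males, 1 member probe was higher than in control males (2.22%, against 0.189% of all tested probes) and 0 were lower (against 0.464%), with 10 of the 45 at an unadjusted p under 0.05, beside 1623 of all 12719 tested probes (12.8%). The median log2 ratio of the member probes was 0.065 in females and -0.027 in males, beside 0.023 and -0.0045 for all tested probes.

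Without control females 6 to 9, all 18 probes kept their sign and 9 passed, namely 3 higher (against 2.37% of all tested probes) and 6 lower (against 4.64%). These were the same 6 lower probes, and Ranbp9, Nup85 and probe 2 of Xpo7. Of the 12 increases, 9 therefore did not pass without these 4 mice, and all 6 decreases did. In the comparison of Rapa females 1 to 4 with control females 1 to 5, whose backgrounds were 78.4 to 80.3 and 76.5 to 89.3, 3 probes passed, 1 higher (against 0.212% of all tested probes) and 2 lower (against 1.5%), and 17 of the 18 kept their sign. The higher probe was probe 2 of Xpo7, and the lower ones were Kpna3 and probe 2 of Nup88. A stricter filter, added once the data had been seen, kept the 32 member probes that at least 0.5 of the arrays in every group detected. Of these, 11 were higher and 2 (Kpna3 and Kpnb1) were lower in Rapa females, since the other 4 lower probes were detected in 1 to 5 of the 11 Rapa females. The share of all probes that passed under this filter is not given, so these counts only describe the members.

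**Figure D2:**
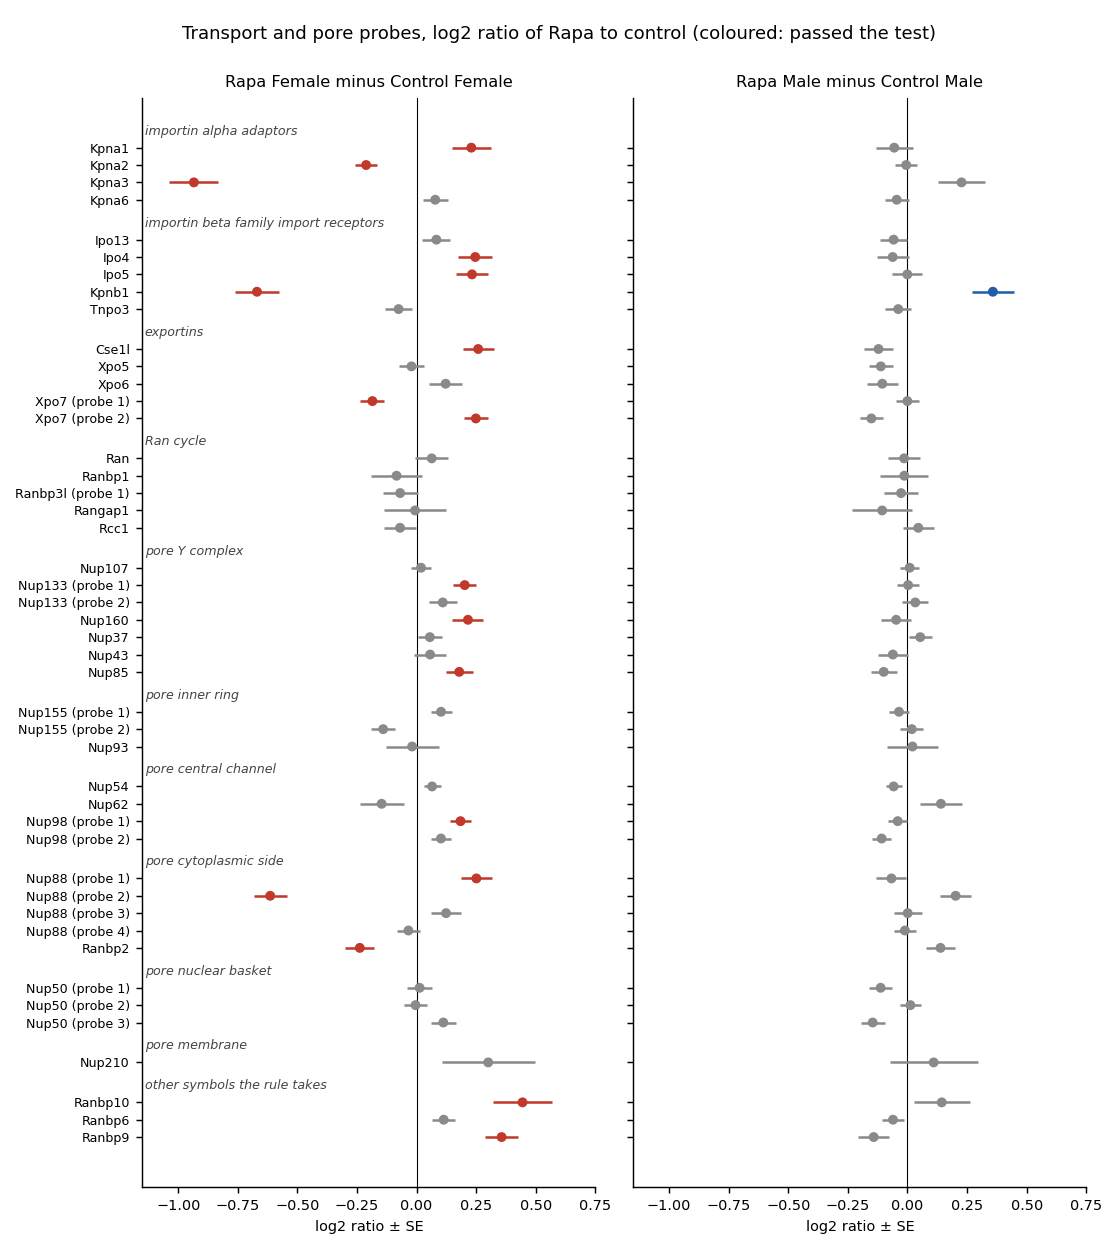
log2 ratio ± SE of the 45 tested member probes (rows, grouped by class) for Rapa Female minus Control Female on the left and Rapa Male minus Control Male on the right, with probes that passed the test in colour. In females 18 probes are coloured, with Kpna3 at -0.93 farthest to the left, and in males only Kpnb1, at 0.36. Some dim probes, such as that of Nup54, were detected on no female array, and their points show the measured signal only.

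The promoters of Kpnb1 and Ranbp2, which were lower in Rapa females with and without control females 6 to 9, and of Ranbp9, which was higher with and without them, follow from 250 bases before to 50 after the start of transcription, as given by RefSeq on GRCm38.p6. RefSeq promoters were at hand for 30 of the 39 genes, and Kpna3 and Cse1l were not among them. Capitals mark matches on either strand to the CCAAT box, the TATA box (TATAAA), the GC box (GGGCGG), the cAMP response element (TGACGTCA), the E box (CACGTG) or the core of the NRF1 site (GCATGCGC).
Kpnb1 (chr11:97187843-97188142, minus strand): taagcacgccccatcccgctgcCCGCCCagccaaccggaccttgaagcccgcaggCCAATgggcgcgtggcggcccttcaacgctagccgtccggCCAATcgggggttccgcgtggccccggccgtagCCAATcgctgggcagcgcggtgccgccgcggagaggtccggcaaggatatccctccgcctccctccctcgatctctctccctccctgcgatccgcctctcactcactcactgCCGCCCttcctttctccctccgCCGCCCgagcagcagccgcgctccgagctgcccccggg
Ranbp2 (chr10:58446602-58446901, plus strand): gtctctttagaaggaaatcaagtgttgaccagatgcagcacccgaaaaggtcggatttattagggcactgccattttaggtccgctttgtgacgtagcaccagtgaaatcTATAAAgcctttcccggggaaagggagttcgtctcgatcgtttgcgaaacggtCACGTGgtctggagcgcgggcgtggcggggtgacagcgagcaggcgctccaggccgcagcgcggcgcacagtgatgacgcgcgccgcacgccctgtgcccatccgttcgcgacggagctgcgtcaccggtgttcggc
Ranbp9 (chr13:43480924-43481223, minus strand): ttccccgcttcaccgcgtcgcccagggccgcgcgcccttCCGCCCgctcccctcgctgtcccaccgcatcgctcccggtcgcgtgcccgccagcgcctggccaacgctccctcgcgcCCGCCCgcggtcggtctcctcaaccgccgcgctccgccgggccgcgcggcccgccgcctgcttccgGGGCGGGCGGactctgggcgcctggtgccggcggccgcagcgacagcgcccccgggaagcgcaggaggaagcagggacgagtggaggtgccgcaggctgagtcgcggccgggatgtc

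The Kpnb1 promoter held CCAAT at -195, -155 and -122 from the start and 3 GC boxes, and none of the other letters searched. That of Ranbp2 held TATAAA at -140 and the E box at -87, and that of Ranbp9 held 4 GC boxes, of which those at -67 and -63 overlap. No motif was common to all 3 windows, and Kpnb1 and Ranbp9 shared the GC box. CCAAT was found in 37.4% of the 32851 RefSeq promoters of this length, the GC box in 35.7%, TATAAA in 13.6%, the E box in 7.15%, the NRF1 letters in 2.71% and the cAMP response element in 1.79%. Of the 34 promoters of member genes, 16 held CCAAT, 23 the GC box, 4 TATAAA, 5 the E box, 7 the NRF1 letters and 2 the cAMP response element. The 7 with the NRF1 letters were those of Rcc1, Ran, Nup62, Nup107, Nup50, Ranbp1 and Xpo5, and none of these genes passed in Rapa against control in either sex. By the brightest probe, 11 of the 36 tested member genes were higher and 5 were lower in Rapa females, and 1 was higher in Rapa males. Whether the NRF1 letters bear on this was not tested. The median GC content was 65.3% in the member promoters and 52.7% in all promoters.

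Among the importin alpha adaptors, 2 of the 4 tested genes were lower and 1 was higher in Rapa females, and none passed in males. Kpna3 (ILMN_1247312) had log2 levels of 7.77 to 8.51 in Rapa females (median 8.19) and 8.72 to 9.50 in control females (median 9.07). The 2 groups did not overlap, which held for 3 of the 45 tested member probes and for 1.79% of all tested probes. The log2 ratio was -0.93 (0.523-fold, SE 0.10, adjusted p = 6.88e-09 by limma), and without control females 6 to 9 it was -0.81 (adjusted p = 1.37e-05 by limma). In males Kpna3 ranged between 8.48 and 9.34 with Rapa (median 9.08) and between 8.49 and 9.08 in controls (median 8.77). Of the 12 Rapa males 10 lay above the control mean, but the ratio of 0.23 (SE 0.10, adjusted p = 0.302 by limma) did not pass. Rapa females were thus the group with the lowest Kpna3.

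Kpna2, an importin alpha that is abundant in dividing cells, had levels of 7.22 to 7.44 in Rapa females (median 7.33) and 7.27 to 7.73 in control females (median 7.58). All 11 Rapa females lay below the control mean, with a ratio of -0.21 (SE 0.047, adjusted p = 0.000994 by limma). The probe was dim in females, being detected in 3 of 11 Rapa females and 6 of 9 control females, and detected in all males, where the ratio was -0.0054 (adjusted p = 0.980 by limma) with levels of 7.33 to 7.61 in Rapa males (median 7.53) and 7.36 to 7.69 in control males (median 7.50). Of 9 tested genes of cycling cells (Cdk1, Aurka, Birc5, Cdc20, Mcm2, Mcm5, Mcm6, Tyms and Rrm2), 0 passed in either sex, with medians of -0.13 in females and 0.15 in males. Kpna1 was higher in Rapa females by 0.23, a call that was lost without any of 7 single mice (control females 1, 5, 7 and 9 and Rapa females 4, 5 and 10). Kpna6 did not pass in either sex.

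Of the 5 tested import receptors of the importin beta family, Kpnb1 was lower and Ipo4 and Ipo5 were higher in Rapa females. Kpnb1 (ILMN_1230411) had levels of 9.03 to 9.97 in Rapa females (median 9.69) and 10.00 to 10.64 in control females (median 10.32), again without overlap. The ratio was -0.67 (0.629-fold, SE 0.094, adjusted p = 8.71e-07 by limma), and -0.56 without control females 6 to 9 (adjusted p = 0.000624 by limma). Between Rapa females 1 to 4 and control females 1 to 5 alone, the ratio was -0.38 and did not pass (adjusted p = 0.110 by limma).

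In males Kpnb1 had levels of 9.41 to 10.07 with Rapa (median 9.86) and 9.22 to 9.67 in controls (median 9.49), so that the groups overlapped. It was higher in Rapa males by 0.36 (1.28-fold, SE 0.089, adjusted p = 0.0420 by limma), with 10 of 12 Rapa males above the control mean. This call was close to the threshold. It was lost when any of 16 of the 22 males was left out, namely control males 1 to 5 and 7 to 9 and Rapa males 2 to 5 and 7 to 10 (adjusted p up to 0.104 by limma), with ratios between 0.33 and 0.39. It was also lost with median centring (0.15, adjusted p = 0.350), with runs of animal numbers as a random block (adjusted p = 0.169), with 3 components of the never-detected probes (0.30, adjusted p = 0.557), and among probes detected on all arrays (adjusted p = 0.0560) or on at least 0.5 of the arrays of every group (adjusted p = 0.0605).

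Kpnb1 and Kpna3, the partners of classical import, were compared among the mice of each group. The levels of both correlated at an r of 0.80 among the 11 Rapa females (permutation p = 0.00174, adjusted over 3 groups 0.00522, Spearman's rho 0.78 with adjusted p = 0.0128) and at 0.67 among the 12 Rapa males (permutation p = 0.0174, adjusted 0.0262, rho 0.73 with adjusted p = 0.0128). In the 10 control males r was 0.39 (permutation p = 0.263, rho 0.53 with adjusted p = 0.122). Without the 2 mice farthest from the median of Kpnb1, r was 0.65 in Rapa females, 0.69 in Rapa males and 0.53 in control males. The Rapa females include mice 1 to 4 and 5 to 11, whose array backgrounds differed. Among the 7 Rapa females 5 to 11 alone, a split added after the pooled value was known, r was 0.64 (exact permutation p = 0.115, rho 0.61 with exact permutation p = 0.167) and 0.17 without the 2 farthest mice, so the relation did not pass the test within them, and 4 mice are too few for a value in the rest. The control females were left out because mice 6 to 9 stood apart. The points share array and scaling, and whether r differed between the groups was not tested.

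Ipo5, which imports ribosomal proteins among other cargo, had levels of 8.36 to 8.80 in Rapa females (median 8.51) and 8.11 to 8.53 in control females (median 8.23). The ratio was 0.23 (SE 0.066, adjusted p = 0.00927 by limma), with 11 of 11 Rapa females above the control mean. Once control females 6 to 9 were left out it was 0.13 and did not pass (adjusted p = 0.354 by limma). In males Ipo5 had levels of 8.12 to 8.72 with Rapa (median 8.40) and 8.27 to 8.53 in controls (median 8.44). Ipo4, an importin of histones, had a ratio of 0.25 in females and 0.074 without control females 6 to 9, where it did not pass. Its levels were 8.22 to 8.43 in Rapa females 1 to 4 and 8.30 to 8.67 in Rapa females 5 to 11, against 8.25 to 8.42 in the first 5 control females. Control females 6 to 9 were lower than all of these, at 7.81 to 8.09. Ipo13 and Tnpo3, the importer of splicing factors rich in serine and arginine, did not pass in either sex.

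**Figure D3:**
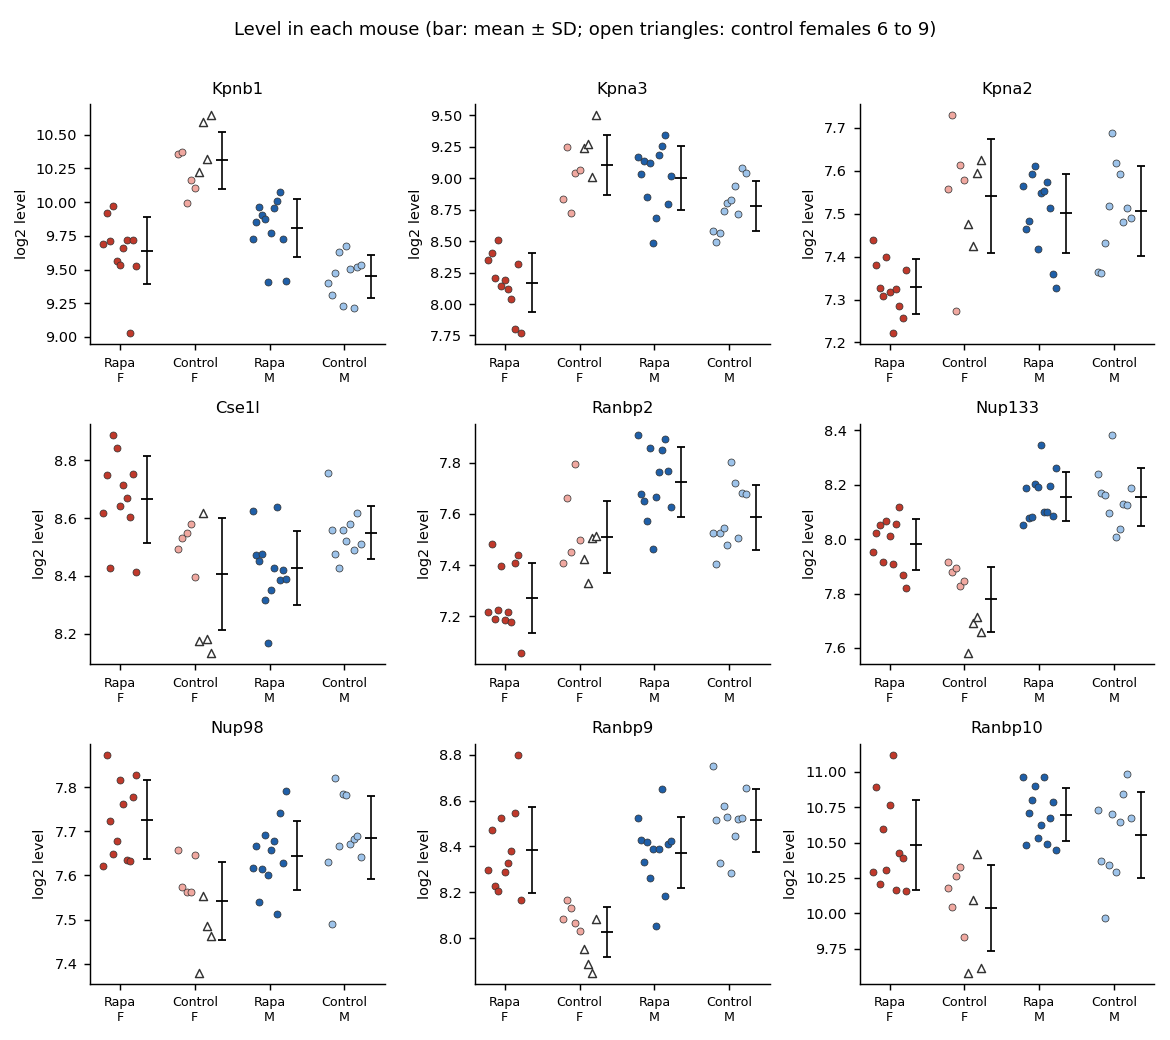
log2 level of 9 member genes in each mouse (points) with the group mean ± SD beside them, in the order Rapa Female, Control Female, Rapa Male and Control Male, with control females 6 to 9 as open triangles. Kpnb1 and Kpna3 of Rapa females lie wholly below those of control females, while for Cse1l, Nup133 and Ranbp9 the control females 6 to 9 make up much of the lower end of their group.

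Of the exportins, 4 genes were tested. Cse1l, the exportin of importin alpha, had levels of 8.41 to 8.89 in Rapa females (median 8.67) and 8.13 to 8.62 in control females (median 8.49), with a ratio of 0.26 (SE 0.065, adjusted p = 0.00305 by limma) and 11 of 11 Rapa females above the control mean. With control females 6 to 9 left out the ratio was 0.16 and did not pass (adjusted p = 0.165 by limma). In males the levels were 8.17 to 8.64 with Rapa (median 8.42) and 8.43 to 8.75 in controls (median 8.54), with a ratio of -0.12 that did not pass (adjusted p = 0.404 by limma). Xpo5, the exportin of precursor microRNAs, and Xpo6, the exportin of actin, did not pass in either sex, at -0.021 and 0.12 in females and -0.11 and -0.11 in males.

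The 2 probes of Xpo7, an exportin with broad cargo, went opposite ways in females. Probe 1 (ILMN_1224755) had levels of 7.05 to 7.38 in Rapa females (median 7.20) and 7.25 to 7.54 in control females (median 7.36), a ratio of -0.19 (SE 0.051, adjusted p = 0.00673 by limma). Probe 2 (ILMN_1251572) had levels of 7.23 to 7.58 in Rapa females (median 7.40) and 7.05 to 7.39 in control females (median 7.18), a ratio of 0.25 (SE 0.052, adjusted p = 0.000446 by limma). Both were dim in females, with probe 1 detected in 1 of 11 Rapa females and 3 of 9 control females and probe 2 in 6 of 11 and 1 of 9. Both passed without control females 6 to 9 as well, so the direction of Xpo7 in females was not settled by these probes. In males probe 1 had 7.35 to 7.75 with Rapa (median 7.64) and 7.41 to 7.70 in controls (median 7.64), and probe 2 had 7.24 to 7.56 with Rapa (median 7.38) and 7.41 to 7.70 in controls (median 7.53).

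None of the 5 tested genes of the Ran cycle passed in either sex. Ran had levels of 7.89 to 8.42 in Rapa females (median 8.18) and 7.83 to 8.41 in control females (median 8.09), with a ratio of 0.064 (SE 0.069, adjusted p = 0.548 by limma). In males it had 8.04 to 8.40 with Rapa (median 8.20) and 7.95 to 8.50 in controls (median 8.25), with a ratio of -0.014 (SE 0.066, adjusted p = 0.962 by limma). Ran thus spanned nearly the same range in all groups.

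Rcc1 had levels of 7.51 to 7.96 in Rapa females (median 7.73) and 7.52 to 8.26 in control females (median 7.73), with a ratio of -0.069 (SE 0.067, adjusted p = 0.493 by limma). In males it had 7.50 to 7.96 with Rapa (median 7.66) and 7.53 to 7.69 in controls (median 7.63), with a ratio of 0.045 (SE 0.064, adjusted p = 0.834 by limma). The spread between mice was wider for Rangap1, at 10.80 to 11.92 in Rapa females (median 11.47), 11.11 to 12.10 in control females (median 11.41), 10.97 to 12.08 in Rapa males (median 11.20) and 10.95 to 11.83 in control males (median 11.49). Its ratios of -0.0062 in females (SE 0.13, adjusted p = 0.982 by limma) and -0.11 in males (SE 0.12, adjusted p = 0.786 by limma) did not pass. Ranbp1, a cofactor of Rangap1, and Ranbp3l did not pass either.

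In the Y complex of the pore scaffold, 3 of the 6 tested genes were higher in Rapa females and 0 were lower. Nup133 had levels of 7.82 to 8.12 in Rapa females (median 8.01) and 7.58 to 7.91 in control females (median 7.83) by probe 1. The ratio was 0.20 (SE 0.048, adjusted p = 0.00188 by limma), and 0.11 without control females 6 to 9, where it did not pass (adjusted p = 0.231 by limma). Probe 2 had a ratio of 0.11 that did not pass. In males probe 1 had 8.05 to 8.35 with Rapa (median 8.14) and 8.01 to 8.38 in controls (median 8.15). Nup160 and Nup85 were higher in Rapa females by 0.22 and 0.18, and of these Nup85 passed without control females 6 to 9 (0.24, adjusted p = 0.0219 by limma) and Nup160 did not (0.13). Nup37, Nup43 and Nup107 did not pass, and 0 of the 6 genes passed in males.

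Neither gene tested of the inner ring, Nup93 and Nup155, passed in females or males. The 2 tested probes of Nup155 had opposite signs in females, at 0.10 (adjusted p = 0.0878 by limma) and -0.14 (adjusted p = 0.0434, within the limit of 0.15). Of the central channel, Nup98 was higher in Rapa females by its brighter probe. It had levels of 7.62 to 7.87 in Rapa females (median 7.72) and 7.38 to 7.66 in control females (median 7.56), with a ratio of 0.18 (SE 0.043, adjusted p = 0.00142 by limma), and 0.13 without control females 6 to 9 (adjusted p = 0.117 by limma). Male levels were 7.51 to 7.79 with Rapa (median 7.64) and 7.49 to 7.82 in controls (median 7.68). Nup62 had ratios of -0.15 in females and 0.14 in males that did not pass.

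On the cytoplasmic side of the pore, Ranbp2 (Nup358), which forms the filaments and binds Ran, was lower in Rapa females. It had levels of 7.06 to 7.48 in Rapa females (median 7.22) and 7.33 to 7.79 in control females (median 7.50), with a ratio of -0.24 (SE 0.062, adjusted p = 0.00429 by limma) and 11 of 11 Rapa females below the control mean. Without control females 6 to 9 it was -0.29 (adjusted p = 0.0112 by limma). The probe was detected in 4 of 11 Rapa females and 7 of 9 control females. In males, where every array detected it, the levels were 7.46 to 7.91 with Rapa (median 7.72) and 7.40 to 7.80 in controls (median 7.53).

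The 4 probes of Nup88, the partner of Nup214 on the cytoplasmic side, did not move together. Probe 1 (ILMN_3108109), the brightest, had levels of 10.10 to 10.55 in Rapa females (median 10.42) and 9.99 to 10.34 in control females (median 10.09), with a ratio of 0.25 (SE 0.066, adjusted p = 0.00490 by limma). Probe 2 (ILMN_2639464) had 7.25 to 7.51 in Rapa females (median 7.38) and 7.66 to 8.47 in control females (median 7.97), without overlap, and a ratio of -0.61 (0.653-fold, SE 0.070, adjusted p = 1.25e-08 by limma). It was detected in 5 of 11 Rapa females and 9 of 9 control females. Without control females 6 to 9, probe 2 still passed (-0.42, adjusted p = 8.19e-06 by limma) and probe 1 did not (0.19, adjusted p = 0.162 by limma).

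In males probe 1 of Nup88 had 9.70 to 10.18 with Rapa (median 9.94) and 9.88 to 10.42 in controls (median 9.98), and probe 2 had 7.62 to 7.95 with Rapa (median 7.79) and 7.36 to 7.79 in controls (median 7.60). Probe 2 was above the control mean in 12 of 12 Rapa males but did not pass. Probes 3 and 4 did not pass in either sex. The lowest correlation between 2 of the 4 probes over the 42 mice, which include the group differences, was -0.45. The sequences of the probes were not used here, so which transcripts each of them reads is not given.

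**Figure D4:**
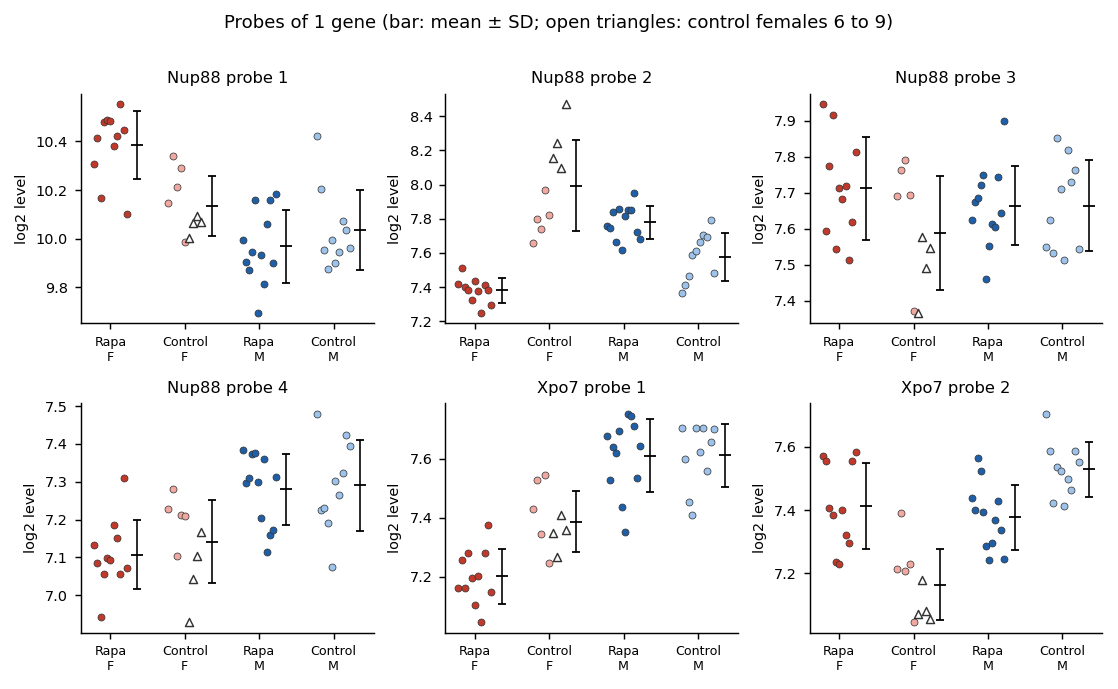
log2 level by each of the 4 probes of Nup88 and the 2 probes of Xpo7 in each mouse (points) with the group mean ± SD beside them, in the order Rapa Female, Control Female, Rapa Male and Control Male, with control females 6 to 9 as open triangles. Rapa females lie above control females by probe 1 of Nup88 (median 10.42 against 10.09) and below them by probe 2 (7.38 against 7.97). For Xpo7 they lie below control females by probe 1 (7.20 against 7.36) and above them by probe 2 (7.40 against 7.18).

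Of the nuclear basket, Nup50 did not pass by any of its 3 probes in either sex. Nup210, the membrane anchor, varied widely between mice, and its ratios of 0.30 in females (SE 0.19) and 0.11 in males (SE 0.19) did not pass. Ranbp9 and Ranbp10 are taken up by the symbol rule, but are best known as scaffold proteins of a ubiquitin ligase complex rather than as transport receptors. Ranbp9 had levels of 8.16 to 8.80 in Rapa females (median 8.33) and 7.85 to 8.16 in control females (median 8.07), with a ratio of 0.36 (1.28-fold, SE 0.069, adjusted p = 0.000165 by limma) and 0.29 without control females 6 to 9 (adjusted p = 0.0249 by limma). Male levels were 8.05 to 8.65 with Rapa (median 8.40) and 8.29 to 8.75 in controls (median 8.52).

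Ranbp10 had levels of 10.16 to 11.12 in Rapa females (median 10.39) and 9.58 to 10.42 in control females (median 10.09), with a ratio of 0.44 (SE 0.12, adjusted p = 0.00728 by limma) and 0.35 without control females 6 to 9, where it did not pass (adjusted p = 0.125 by limma). Males had 10.45 to 10.97 with Rapa (median 10.69) and 9.97 to 10.98 in controls (median 10.66). Ranbp6, a close relative of Ipo5, did not pass in either sex.

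**Figure D5:**
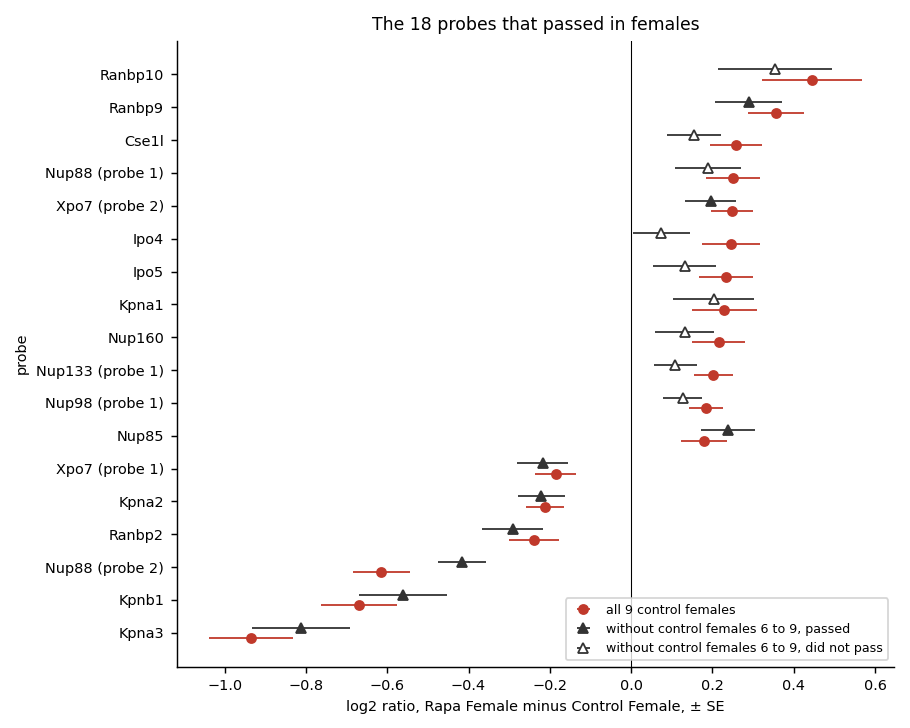
log2 ratio ± SE of Rapa Female minus Control Female for the 18 member probes that passed in females (rows), with all 9 control females (circles) and without control females 6 to 9 (triangles, filled where the probe passed). All 18 keep their side of 0, and the 6 lower probes and 3 of the higher ones pass in both.

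The Rapa effect differed between the sexes for 16 member probes by the interaction term. It was more positive in females for 11 (24.4%, against 11.9% of all tested probes) and more negative for 5 (11.1%, against 8.51%), and with median centring 20 (against 31.5% of all tested probes) and 5 (against 5.28%). The 3 genes with the lowest adjusted p were Kpna3, Kpnb1 and Ranbp9. The female minus male effect was -1.16 for Kpna3 (SE 0.14, adjusted p = 9.95e-08 by limma), -1.03 for Kpnb1 (SE 0.13, adjusted p = 1.62e-07 by limma) and 0.50 for Ranbp9 (SE 0.095, adjusted p = 0.000167 by limma). Probe 2 of Nup88 (-0.82), Ranbp2 (-0.38) and Kpna2 (-0.21) were the other probes with a negative difference. Those with a positive one were probe 2 of Xpo7 (0.40), Cse1l (0.38), probe 1 of Nup88 (0.32), Ipo4 (0.31), Nup85 (0.28), Nup160 (0.26), Nup98 by probe 1 (0.23), Nup133 by probe 1 (0.20), probe 3 of Nup50 and probe 2 of Nup98. The last 2 were detected on no female array and entered the test through males only. The call of Nup160 was lost without any of 5 mice (control male 3, control females 6 to 8 and Rapa female 5), with 0.23 at the weakest, and that of Nup133 without control female 6 (0.17).

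With those 4 control females left out, the difference between the sexes passed for 9 of these probes, 5 more positive (against 3.84% of all tested probes) and 4 more negative (against 5.12%). They were Kpna3, Kpnb1, Ranbp2, probe 2 of Nup88, Cse1l, Nup85, Ranbp9, probe 2 of Xpo7 and probe 2 of Nup98. Kpna3 then had -1.04 and Kpnb1 -0.92, each passing.

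Between the sexes on the control diet, 8 member probes were higher in control females than in control males (17.8%, close to the 17.7% of all tested probes) and 15 were lower (33.3%, against 22.5%), and with median centring 4 (against 11.5%) and 24 (against 37.2%). Leaving out control females 6 to 9, 4 of these probes were higher (against 11.8% of all tested probes) and 12 were lower (against 13.8%). Of the 15 lower probes, 4 (Nup54, Ranbp6, probe 3 of Nup50 and probe 2 of Nup98) were detected on 0 or 1 of the 20 female arrays and entered the test through males, so that their direction was set by the filter. Both probes of Xpo7, also among the 15, were detected on too few female arrays to pass the filter without males. Control females detected probes 1 and 2 on 3 and 1 of 9 arrays, and Rapa females on 1 and 6 of 11. The filter thus favoured their direction too. Among the 32 member probes detected on at least 0.5 of the arrays of every group, 6 were higher (against 17% of all probes so filtered) and 8 were lower (against 20.3%). Kpnb1 had 10.00 to 10.64 in control females and 9.22 to 9.67 in control males, with a ratio of 0.86 (1.82-fold, SE 0.096, adjusted p = 3.55e-09 by limma). The other higher probes were those of Nup62 (0.38), Kpna3 (0.33), Ipo13 (0.28), Ranbp3l (0.24), Rcc1 (0.17), probe 2 of Nup88 (0.42) and probe 2 of Nup155 (0.20). Without control females 6 to 9, Kpna3 (0.20), Ranbp3l (0.21), Rcc1 (0.041) and probe 2 of Nup155 (0.16) did not pass. The call of Rcc1 was lost without any of 15 mice, namely control males 1, 2 and 4 to 10 and control females 3, 6, 8 and 9, and Rapa males 4 and 8, which enter through the pooled spread.

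Nup133 was lower in control females than in control males, with a ratio of -0.38 (SE 0.049, adjusted p = 9.67e-08 by limma). Nup54 of the central channel was detected in 0 of 11 Rapa females, 0 of 9 control females, 10 of 12 Rapa males and 10 of 10 control males. Its measured levels were 7.09 to 7.30 in Rapa females (median 7.18) and 7.06 to 7.23 in control females (median 7.09), against 7.23 to 7.44 in Rapa males (median 7.35) and 7.24 to 7.49 in control males (median 7.42). These levels are a description, since the probe entered the test through males only, and no fold is given because the lowest detected signals of the female arrays lay above the male mean. Also lower in control females were Ranbp10 (-0.52), Ranbp9 (-0.49), Nup85 (-0.41), Xpo7 by probe 2 (-0.36) and probe 1 (-0.22), Nup133 by probe 2 (-0.28), Nup50 by probe 1 (-0.18), Nup160 (-0.18), Nup43 (-0.18) and Nup37 (-0.16). The calls of Nup160 (control male 3 and control females 7 and 8), Nup37 (control males 9 and 10 and control females 8 and 9) and Nup43 (control males 5, 8 and 9 and control females 6 to 9) were lost when any 1 of the mice in brackets was left out, and their ratios were then -0.15, -0.13 and -0.14 at the weakest. Nup160 (-0.097), Nup37 (-0.091) and Nup43 (-0.016) also did not pass without control females 6 to 9 together. For probe 3 of Nup50, control males were at least 1.03-fold higher (control females set at the lowest detected signal of each array). This is a description too, since the probe entered the test through males only.

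With Rapa, 5 member probes were higher in females than in males (11.1%, against 16.3% of all tested probes) and 10 were lower (22.2%, against 15.8%), and with median centring 6 (against 18.6%) and 5 (against 9.76%). Among the probes detected on at least 0.5 of the arrays of every group, 5 member probes were higher (against 17.2%) and 3 were lower (against 14.9%). Kpnb1, so different between the control groups, had 9.03 to 9.97 in Rapa females and 9.41 to 10.07 in Rapa males and did not pass (-0.17, SE 0.087, adjusted p = 0.134 by limma). Kpna3 was lower in Rapa females than in Rapa males, with a ratio of -0.84 (SE 0.096, adjusted p = 6.95e-09 by limma). The ratio was -0.41 for probe 1 of Xpo7, which 1 of 11 Rapa females and 12 of 12 Rapa males detected (SE 0.047, adjusted p = 8.21e-09 by limma) and -0.45 for Ranbp2 (SE 0.057, adjusted p = 6.22e-08 by limma). Too few female arrays detected probe 1 of Xpo7 to pass the filter without males, so the filter favoured its direction. The further lower probes were probe 2 of Nup88 (-0.40), both tested probes of Nup133 (-0.18 and -0.20), Kpna2 (-0.17), Nup37 (-0.16), and Nup54 and probe 4 of Nup88, which no female array detected and which entered the test through males only. The higher ones were Ipo13 (0.43), probe 1 of Nup88 (0.42), Cse1l (0.24), Xpo5 (0.21) and Ranbp3l (0.20). Nup37 did not pass without Rapa male 5 or Rapa female 7 or 10 (-0.14 at the weakest), nor did Ranbp3l without Rapa female 6 or 7 (0.16 at the weakest).

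The comparisons of the sexes ran along with other differences between their arrays. The background differed as given above. When 3 principal components of the probes that no array detected were added as covariates, 0 member probes passed between the control groups and 1 with Rapa. Sex accounted for 89.4% of the variance of the first component, 8.07% of the second and 0.0495% of the third, so that the first component and sex cannot be told apart. Of the 7 tested neutrophil markers, 6 were higher in control females than in control males (median log2 ratio 2.07), with a summed linear level of 2430 to 122907 in control females and 1594 to 49944 in control males, and S100a8 (2.25) and S100a9 (2.07) were among them. Of 3 tested Kupffer cell markers 2 were also higher (Clec4f and Vsig4), as were Alb of 6 hepatocyte markers (0.54), Ms4a1 of 4 B cell markers and Clec4g of 4 endothelial markers. Of 5 stellate cell markers Lrat (-0.74) and Rgs5 (-0.41) were lower, and of 2 duct cell markers Sox9 (-0.53). In Rapa females against Rapa males, 3 of the 7 neutrophil markers (Ngp, Camp and Ltf) and Vsig4 were higher, and Lrat (-0.88), Rgs5 (-0.55), Col1a2 (-0.32) and Pck1 (-0.95) were lower. Their part in the member results was not tested.

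In Rapa against control females, 0 of the 7 neutrophil markers and 0 of the 3 Kupffer cell markers passed. Of 4 tested endothelial markers 2 were lower (Lyve1 and Clec4g), with a summed linear level of 6054 to 11611 in Rapa females and 8468 to 11413 in control females. Of 6 tested hepatocyte markers 2 were lower (Alb by 0.40 and Pck1 by 0.91 on the log2 scale), with a summed linear level of 137708 to 153193 in Rapa females and 123439 to 150322 in control females, and 1 of 5 stellate cell markers was lower (Rgs5). Of these 5 lower markers, Alb alone passed without control females 6 to 9 (-0.39). Every one of these summed levels lay above 0, as a sum of positive signals must. The part of these markers in the member results was not tested.

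Genes of the same machinery that the symbol rule leaves out were read from a separate list. Of 19 such genes of the pore and of transport, 13 were tested, and in Rapa females 2 were higher and 3 were lower than in control females, with a median log2 ratio of -0.0085. Pom121, a membrane protein of the pore, was lower with a ratio of -0.74 (SE 0.089, adjusted p = 4.28e-08 by limma), and Gle1, which acts in mRNA export at the cytoplasmic filaments, and Phax, an adaptor for export of small nuclear RNA, were lower with ratios of -0.27 and -0.24. Seh1l of the Y complex (0.38) and Nupl1 of the central channel (0.17) were higher. With control females 6 to 9 left out, Pom121 (-0.54), Phax (-0.31) and Seh1l (0.24) passed, and Gle1 (-0.15) and Nupl1 (0.12) did not. Of 13 tested genes of mRNA export, Thoc1 (0.28) and Thoc5 (0.26) of the THO complex were higher and Sarnp (-0.39) was lower, and of these Sarnp (-0.33) passed without the 4 control females. None of the genes of these 2 lists passed in males.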

How the data were processed

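Liver RNA of 42 mice was measured on Illumina Mouse Ref8 arrays. The authors deposited the bead intensity of each of 25697 probes without normalization, a detection score as a fraction between 0 and 1 (1 minus this score served as the detection p), and log2 values after quantile normalization for 17082 probes. Which slide or batch held each array is unknown. Here the intensity was log2-transformed and quantile-normalized over all probes and arrays. Group means of all 42 arrays were fitted with limma 3.58.1 (lmFit and eBayes) in R 4.3.3 with statmod 1.5.0, and p-values were adjusted (Benjamini-Hochberg) over all 12719 tested probes, those that 9 or more arrays detected at a p under 0.05. Passing required an adjusted p under 0.05 and a change of more than 0.15 on the log2 scale (1.11-fold). Correlations were tested with 100000 permutations. The script was tested on simulated data with 50 probes changed at each size. It recovered 34% of changes of 0.2 on the log2 scale in females and 22% in males. For changes of 0.5 it recovered 86% and 84%. A small change that did not pass is therefore not shown to be absent. The number of arrays limits the precision.

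A gene was represented by its brightest tested probe, and other probes were given where they differed. Full values are given for probes that passed in males, for the 12 genes with the lowest adjusted p in females, for the 3 lowest in the interaction and in each comparison of the sexes, and for Kpnb1, Ran, Rcc1, Rangap1 and Cse1l. Members, lists, markers and this rule were chosen with earlier results of these data known. Probe symbols came from the platform annotation (11980 of the tested probes with 1 symbol, 739 with none), and all 39 member genes matched RefSeq by gene ID. The alternatives were the authors' log2 values, background correction (neqc, offset 16), median centring, other detection filters and fold thresholds, an equal-variance form of the methods' pairwise test, a fit of the compared arrays only, array weights, 2 kinds of block, 1 probe per gene, components of never-detected probes, and leaving out mice.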

Additional observations from a re-analysis of the deposited data

Results flagged for a closer look

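For 9 of the 16 named genes the Rapa effect differed between females and males by limma's interaction term on the brightest probe. These genes were chosen in part for low p-values in this comparison and in females, so the count is a description, beside 20.4% of all tested probes. The female minus male difference in log2 ratio was -1.161 for Kpna3 (adjusted p = 9.95e-08), -1.028 for Kpnb1 (adjusted p = 1.62e-07), 0.4986 for Ranbp9 (adjusted p = 0.000167), 0.3801 for Cse1l (adjusted p = 0.00189) and -0.3767 for Ranbp2 (adjusted p = 0.00132). It was 0.3183 for Nup88 by probe 1 (adjusted p = 0.0103), while probe 2 of Nup88 had -0.82 (adjusted p = 4.62e-08). It was 0.2254 for Nup98 (adjusted p = 0.00499), -0.2062 for Kpna2 (adjusted p = 0.0203) and 0.1994 for Nup133 (adjusted p = 0.0272). Without control females 6 to 9, the differences of Kpna3, Kpnb1, Ranbp9, Cse1l and Ranbp2 passed, and those of Nup88 by probe 1 (0.26), Nup98 (0.17), Kpna2 (-0.22) and Nup133 (0.11) did not. The difference of Nup133 also failed without control female 6 alone (adjusted p = 0.0545). In none of 32 groups tested (the control females and the control males for 16 genes) did the highest or lowest mouse stand farther from the others than Dixon's limit allows, whereas chance alone passes that limit in about 1 of 20 groups.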

How the results depend on the processing

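The authors' values gave the same counts of member probes as the main setting (18 for females, 1 for males, 16 for the interaction, 23 between control sexes and 15 between Rapa sexes). For females, the count was 9 without control females 6 to 9 and 3 with control females 1 to 5 and Rapa females 1 to 4 only, and it stayed within 1.5 times 18 under the other alternatives. For males, it was 12 with median centring (all lower, beside 18.6% of all tested probes, whose median moved to -0.13), 0 for probes detected on all arrays, with animal-number runs as a random block and with 3 components, and 2 without a detection filter, with array weights, without control females 6 to 9 and in the female subset. For the interaction, it was 25 with median centring (median of all tested probes 0.19), 9 for probes detected on all arrays, of which fewer were tested (23), 9 without control females 6 to 9, 5 in the female subset and 3 with 3 components. Between control sexes, it was 11 for probes detected on all arrays and 0 with 3 components, and between Rapa sexes 6, 1 with components, and 8 at a threshold of 0.20 on the log2 scale. Leaving out 1 mouse gave 17 to 19 for females, 0 to 1 for males, 14 to 19 for the interaction, 19 to 27 between control sexes and 14 to 15 between Rapa sexes. Among probes detected on at least 0.5 of the arrays of every group (32 member probes, a filter added after seeing the data), it was 13 for females, 0 for males, 10 for the interaction, 14 between control sexes and 8 between Rapa sexes. Where no share of all tested probes stands beside them, the counts of this section only describe the members. The replicate block gave 18, 0, 18, 23 and 15 (Kpnb1 in males 0.41, adjusted p = 0.0517), but the labels' numbers only name mice. Of 19 pairs of the same number, 12 correlated over 0.1 (-0.50 to 0.49), and in 2 the Rapa mouse correlated best with its own number. Of 73 results on single probes, 7 passed under every alternative that tested them and 21 reversed under 1. Not every alternative tested every result, and leaving out single mice was counted apart. Ipo4 in females was -0.038 in the female subset. The rest reversed with 3 components and none passed. Sex accounted for 89.4%, 8.07% and 0.0495% of the variance of these components, and the cause was not tested. Between control sexes these were Kpna3 (-0.25), Ipo13 (-0.77), Xpo7 (0.085 and 0.39), Rcc1 (-0.64), Nup133 (0.064), Nup37 (0.45), Nup43 (0.86), Nup155 (-0.36), Nup54 (0.035), Nup98 (0.14), Nup88 (-0.72) and Ranbp10 (0.41). Between Rapa sexes they were Ipo13 (-0.50), Xpo5 (-0.10), Ranbp3l (-0.020), Nup133 (0.21), Nup37 (0.39), Nup54 (0.13) and Nup88 (0.38). Apart from control females 6 to 9, the faintness of many member probes in females limits these values.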
